A study of Mus musculus with 27 samples.

Results

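The genes described here are 43 mouse factors that write, remove or read histone acetylation and DNA methylation: 17 deacetylases and sirtuins, 9 acetyltransferases, 7 co-repressor subunits and 10 DNA methylation factors. They were taken by name, with every array probe annotated to them, and no measured value entered the choice. Of the 43 genes, 40 had an annotated probe and 38 were measured, out of 19057 genes with a probe and 10663 measured genes on the array. Measured means that at least 1 probe of the gene was above background, at a detection p under 0.01, on at least 5 of the 27 arrays. Hdac1, Ncor1 and Tet2 had no probe under a symbol of their own and were not analysed here. Dnmt3a and Tet3 had probes that were above background on 0 of 27 arrays, so their transcripts were not detectable by these probes.

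Total RNA was labelled as biotinylated cRNA and hybridised to 27 Illumina BeadChip arrays, 1 array per sample, in 5 groups. The labels name 6 samples E13 embryo and 5 samples E16 embryo, for embryonic days 13 and 16, and the columns of these samples carry the letters WT. Another 5 samples at E13 and 6 at E16 are labelled as embryonic cortex with a conditional knockout (cKO) of Tbr2, the transcription factor of intermediate progenitors that is encoded by Eomes. The remaining 5 samples are Tbr2-lineage neurons of the cortex at postnatal day 2 (P2), sorted for green fluorescent protein. All embryonic samples are titled as a re-analysis. The labels name no tissue for the embryo samples, repeat the sort protocol for every sample, give the age E13 for the E16 embryo samples as well, and name neither a Cre driver, the knockout allele, a strain nor the reporter. They do not say whether replicates were separate animals, so each p-value measures the spread between these samples only. Signals came in separate tables for embryo, cKO and P2 samples, so label and table cannot be told apart, nor can age, sort and table for P2.

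Histone acetyltransferases add acetyl groups to lysines of histone tails, a mark of active promoters and enhancers, and deacetylases remove them. Class I deacetylases act mostly inside co-repressor complexes built on scaffolds such as Sin3a, Rcor1 and Rcor2 and the Mta proteins, whereas class IIa deacetylases move between nucleus and cytoplasm and bind MEF2 factors. DNA methylation is set by Dnmt3a and Dnmt3b, copied at replication by Dnmt1 with the help of Uhrf1, oxidised by Tet enzymes and read by methyl-CpG binding proteins. In the developing cortex this machinery is known for its part in the switch from dividing progenitors to neurons.

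Between 36.9% and 42.9% of probes were above background per array, and the median raw signal was 8.51 to 16.8 on embryonic and 17.6 to 42.3 on P2 arrays. All levels below are log2 signals after normalisation, and array numbers follow column order and serve as names only. Eomes, the targeted gene, was not lower under the cKO label. At E13 its level was 11.2 ± 0.267 (SD, n = 6) in embryo samples, against 11.5 ± 0.0974 (SD, n = 5) under the cKO label. At E16 the levels were 10.4 ± 0.323 (SD, n = 5) and 11.04 ± 0.463 (SD, n = 6). Where its probe lies relative to the deleted part is not given in the sources used here, so groups are called by their labels throughout. On the second principal component of the embryonic arrays, 10 of 11 embryo arrays had positive and 9 of 11 cKO arrays negative scores. The exceptions under the cKO label were array 2 at E13 (10.7) and array 3 at E16 (5.89), and results that turn on them are also given without them. Array 4 of E13 cKO stood apart in markers of other cells. Its summed log2 signal was 12.58 for choroid plexus and hem markers, where the other 4 E13 cKO arrays had 7.89 to 8.90. It was 11.58 against 8.12 to 9.30 for interneurons, 8.22 against 6.27 to 6.45 for endothelium, 8.70 against 5.99 to 6.27 for meninges and 13.999 against 7.59 to 9.13 for the erythroid marker. Array 6 of E16 cKO had 13.02 for the erythroid marker, where the other E16 cKO arrays had 9.57 to 11.18. For interneurons it had 10.09 against 8.35 to 9.19. Its choroid plexus and hem, endothelial and meningeal sums lay within the range of the other E16 cKO arrays.

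Promoter windows of 4 members are shown. Hdac9 and Hdac11 belong to the largest changes between E13 and E16. Uhrf1 and Dnmt1 each hold a match to the E2F motif of S phase genes in 1 of their annotated windows. Only Uhrf1 of this pair passed a test between the stages. All are windows before an annotated start in RefSeq for build GRCm38.p6, read on the strand of the gene. The Uhrf1 window is chr17:56304113-56304312, plus strand, and the Dnmt1 window chr9:20952624-20952853, minus strand, with capitals at the E2F match.
Uhrf1: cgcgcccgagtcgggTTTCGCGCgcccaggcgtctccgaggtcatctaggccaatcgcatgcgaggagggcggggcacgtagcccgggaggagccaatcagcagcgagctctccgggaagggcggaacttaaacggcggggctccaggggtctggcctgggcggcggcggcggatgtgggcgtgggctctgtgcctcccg
Dnmt1: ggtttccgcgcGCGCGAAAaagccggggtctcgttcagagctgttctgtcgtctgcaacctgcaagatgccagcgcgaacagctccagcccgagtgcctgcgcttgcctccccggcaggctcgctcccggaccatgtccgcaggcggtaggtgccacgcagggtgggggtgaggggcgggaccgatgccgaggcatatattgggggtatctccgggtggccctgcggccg
The Hdac11 window is chr6:91156665-91156814, plus strand, and the Hdac9 window chr12:34917096-34917245, minus strand, with capitals at each CpG.
Hdac11: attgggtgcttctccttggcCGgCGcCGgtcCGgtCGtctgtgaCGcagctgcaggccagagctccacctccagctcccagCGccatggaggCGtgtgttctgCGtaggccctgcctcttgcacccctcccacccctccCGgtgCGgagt
Hdac9: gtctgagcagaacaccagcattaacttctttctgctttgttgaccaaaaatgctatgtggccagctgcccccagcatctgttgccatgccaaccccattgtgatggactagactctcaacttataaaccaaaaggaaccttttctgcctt
The Hdac11 stretch held 11 CpG and the Hdac9 stretch 0. RefSeq windows of 300 bases, from 250 before to 50 after a start, were given for 36 of the 43 genes (53 windows). Their median was 21 CpG, against 7 over all 32851 windows of the table, and Hdac9 had windows with 0 and 3. The E2F forms TTTCCCGC, TTTGGCGC, TTTCGCGC and TTTGCCGC were searched on both strands. They occurred in 3 windows, 1 each of Uhrf1, Dnmt1 and Kat2a, or 5.66% of the 53, against 2.26% of all windows. The other windows of Dnmt1 (chr9:20952930-20953229 and chr9:20959839-20960138) and of Uhrf1 (chr17:56303087-56303386) held 0 matches. On the strand of each gene, the stretch printed above lies downstream of those windows and of their starts. In Uhrf1 the match was TTTCGCGC 185 bases before the start, and in Dnmt1 the same letters on the opposite strand 219 bases before it, with another match, TTTGGCGC, after the start. The cyclic AMP response element TGACGTCA was in 0 of the 53 windows and in 1.79% of all windows. A match of letters is a description and shows no binding.

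Between E13 and E16, the class IIa deacetylases Hdac4, Hdac7 and Hdac9 and the class IIb enzyme Hdac10 rose, and Hdac11, Uhrf1 and Mbd2 fell, in the embryo arrays and also in the arrays labelled cKO. In the embryo arrays 4 of the 38 measured members rose, where 11.5% of all measured genes did, and 3 fell, where 12.3% did. In the cKO arrays 4 rose and 4 fell, against 11.6% and 14.3% of all measured genes. A gene passed at an adjusted p under 0.05 in limma, with Benjamini-Hochberg adjustment over all measured genes. The share of members that passed, 18.4% in embryo and 21.1% in cKO, was not above that of all genes, 23.8% and 26.0%. The embryo and cKO comparisons share no array. All 7 members that passed in embryo passed in cKO in the same direction, and they were 7 of the 8 that passed there, the other being Sirt6. How many of all measured genes passed under both labels in the same direction was not counted. Of these calls, that of Hdac4 in cKO was lost under 13 of 22 alternatives. In embryo, the call of Uhrf1 was lost under 8 of 19 and that of Hdac7 under 1 of 19. In these bulk samples, fewer cells of a type and less RNA per cell cannot be told apart.

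Hdac9, a class IIa enzyme, ran from 6.45 over a median of 6.64 to 6.78 on the 6 E13 embryo arrays. On the 5 E16 embryo arrays it read 6.88, 7.42, 7.22, 7.73 and 7.49. All E16 values lay above the E13 range. The rise was 0.71 ± 0.193 (SE) on the log2 scale, or 1.63-fold, with a limma adjusted p of 0.00794. In E13 cKO it read 6.83, 6.66, 6.87, 6.20 and 6.67, and in E16 cKO it ran from 6.998 over a median of 8.11 to 8.57. The cKO groups did not overlap either, and the rise was 1.35 ± 0.193, or 2.55-fold (limma adjusted p = 6.56e-06). Hdac4, another MEF2 partner, ran from 8.12 over a median of 8.42 to 8.67 at E13 and read 9.18, 9.16, 9.17, 8.86 and 8.82 at E16 in embryo. The E16 arrays all lay higher, by 0.63 ± 0.138 in the mean (limma adjusted p = 0.00115). In cKO its values were 8.39, 8.50, 8.52, 8.51 and 8.81 at E13, and from 8.61 over a median of 8.82 to 9.36 at E16. These groups overlapped, the rise was 0.39 ± 0.138 (limma adjusted p = 0.0379), and the call was lost under 13 of 22 alternatives, with an adjusted p of up to 0.142. Among these were the omission of any 1 of arrays 1 to 4 of E13 cKO or of arrays 1 and 5 of E16 cKO. Hdac7 ran from 8.64 over a median of 8.85 to 9.24 at E13 and read 9.30, 9.24, 9.60, 9.33 and 9.38 at E16 in embryo. The groups were just apart, with a rise of 0.49 ± 0.141 (limma adjusted p = 0.0113), and in cKO the rise was 0.59 ± 0.141 (limma adjusted p = 0.0023) with overlapping groups. Hdac5, the remaining class IIa gene, changed by -0.03 ± 0.119 in embryo and by -0.0012 ± 0.119 in cKO and did not pass.

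Hdac11, the only class IV deacetylase and an enzyme that also removes long acyl chains, showed the largest change of the set between stages. It ran from 7.78 over a median of 8.16 to 8.63 on the E13 embryo arrays and read 7.17, 6.61, 7.09, 7.19 and 6.78 at E16. Every E16 embryo array was below every E13 embryo array. The mean change was -1.21 ± 0.155, or 2.31-fold lower (limma adjusted p = 1.88e-06). In E13 cKO it read 8.71, 8.15, 8.41, 8.99 and 8.67, and in E16 cKO it ran from 6.63 over a median of 6.94 to 7.19. The groups were again apart, with a change of -1.68 ± 0.155, or 3.21-fold lower (limma adjusted p = 7.82e-09). Array 4 of E13 cKO, which stood apart in markers of other cells, was the highest of its group for Hdac11 and the lowest for Hdac9. Without it the changes in cKO were -1.58 for Hdac11 and 1.24 for Hdac9 (limma adjusted p = 5.73e-08 and 4.73e-05), and 7 members passed in cKO, Hdac4 no longer among them (limma adjusted p = 0.0677). Hdac10, a cytoplasmic class IIb enzyme that acts on polyamines, moved the other way. It ran from 7.70 over a median of 7.73 to 8.07 on the E13 embryo arrays and read 8.80, 8.40, 8.27, 8.57 and 8.26 at E16. The groups did not overlap in embryo (0.63 ± 0.142, limma adjusted p = 0.00164) or in cKO (0.61 ± 0.142, limma adjusted p = 0.00191). Hdac6, the tubulin deacetylase, changed by -0.09 ± 0.107 and 0.03 ± 0.107 and did not pass.

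**Figure D1:**
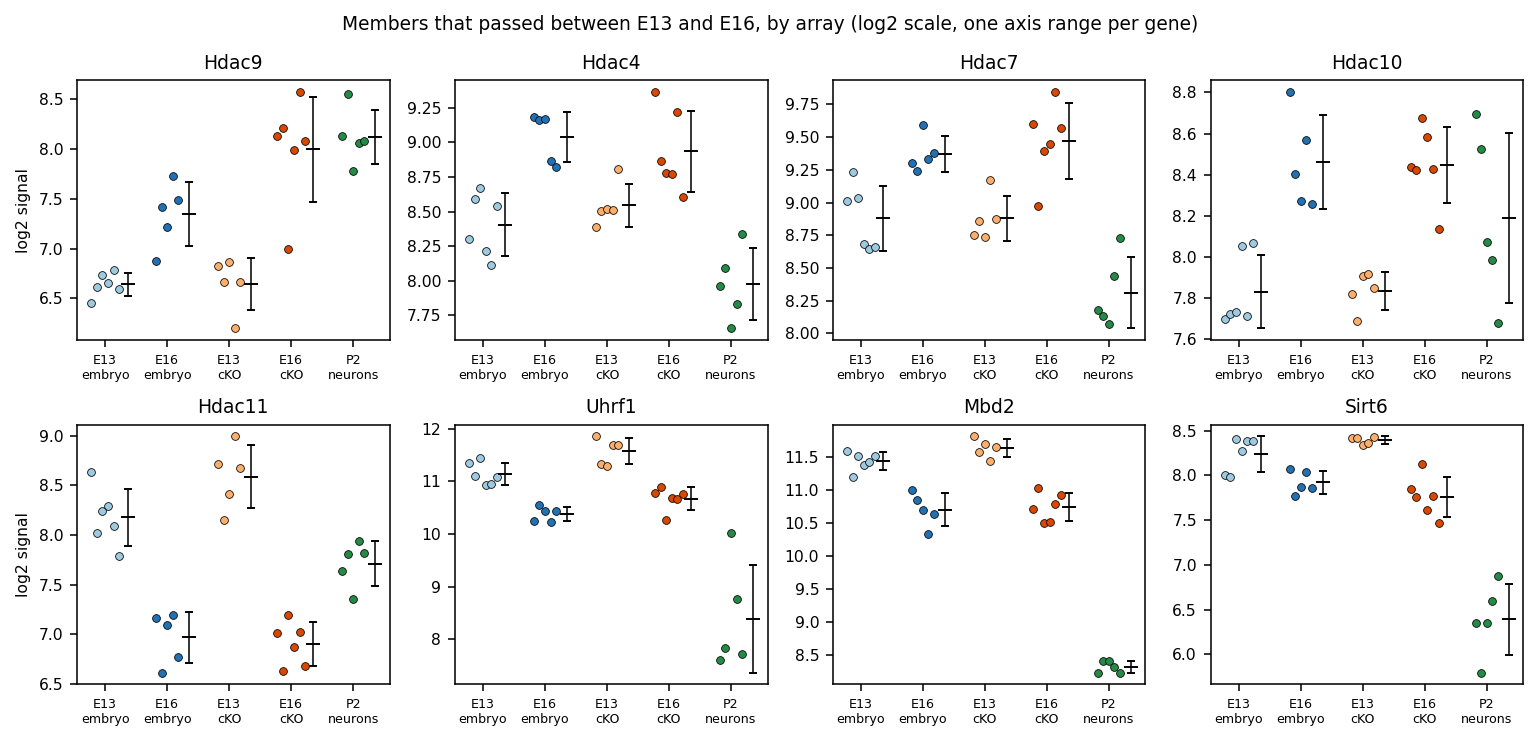
Log2 signal (y axis, own range per gene) on each array (points) by group (x axis) for the 8 members that passed between E13 and E16, with the mean and SD beside each group (n = 5 or 6). Hdac9 sits at 6.45 to 6.78 in E13 embryo and at 6.88 to 7.73 in E16 embryo, whereas Hdac11 drops from 7.78 to 8.63 at E13 to 6.61 to 7.19 at E16.

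Uhrf1, which binds hemimethylated CpG behind the replication fork and recruits Dnmt1, ran from 10.94 over a median of 11.09 to 11.45 on the E13 embryo arrays and read 10.24, 10.55, 10.44, 10.23 and 10.44 at E16. All E16 embryo arrays were lower. The change was -0.77 ± 0.269 with a limma adjusted p of 0.0384 over all 27 arrays, and of 0.000215 with only the E13 and E16 embryo arrays in the fit. The call over all arrays was lost under 8 of 19 alternatives, with an adjusted p of up to 0.0796, among them the omission of any 1 of arrays 1 to 3 at E13 or of arrays 1, 3, 4 and 5 at E16. In cKO it read 11.86, 11.33, 11.30, 11.70 and 11.70 at E13 and ran from 10.27 over a median of 10.72 to 10.89 at E16, again apart, with a change of -0.90 ± 0.269 (limma adjusted p = 0.0141). Mbd2, the methyl-CpG binding subunit of the NuRD complex, ran from 11.20 over a median of 11.47 to 11.59 at E13 and read 11.004, 10.85, 10.71, 10.34 and 10.64 at E16 in embryo. It was lower on every E16 array than on every E13 array, with a log2 difference of -0.73 ± 0.11 in embryo (limma adjusted p = 1.6e-05) and -0.89 ± 0.11 in cKO (limma adjusted p = 7.74e-07). Sirt6, a chromatin-bound sirtuin, read 8.42, 8.42, 8.34, 8.36 and 8.43 in E13 cKO and ran from 7.47 over a median of 7.76 to 8.12 in E16 cKO. The groups were apart there, with a change of -0.63 ± 0.137 (limma adjusted p = 0.00102), while in embryo the change was -0.31 ± 0.137 (limma adjusted p = 0.0989) with overlapping groups. The difference between these changes, -0.32 ± 0.194, did not pass. By 1 of its 2 other kept probes Sirt6 passed under both labels (-0.35 in embryo, limma adjusted p = 0.00851 over kept probes), and by the other under neither (limma adjusted p = 0.202 in cKO).

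Markers of cycling cells moved with these falls. Of 11 measured cycling markers, 9 fell and 0 rose between E13 and E16 in each label, among them the mitotic kinase Cdk1 at -1.33 ± 0.251 and the topoisomerase Top2a at -1.29 ± 0.301 in embryo. Their summed log2 signal ran from 13.4 to 13.9 in E13 embryo, 12.6 to 12.8 in E16 embryo, 13.8 to 14.1 in E13 cKO and 12.5 to 13.1 in E16 cKO. Of the other marker lists in embryo, 2 of 3 intermediate progenitor and 3 of 8 cortical neuron markers fell, and 1 of 8 radial glia markers rose and 1 fell. The 1 measured erythroid marker rose, 1 of 2 choroid plexus and hem markers fell, and 0 markers of interneurons, astrocytes, the oligodendrocyte lineage, microglia, endothelium or meninges passed. In cKO, 2 of 8 cortical neuron markers rose and 1 fell, 1 of 8 radial glia markers rose and 2 fell, 2 of 2 choroid plexus and hem markers fell, and 0 markers of intermediate progenitors, erythroid cells or the lists with 0 in embryo passed. The part of these markers in the falls of Uhrf1, Mbd2, Hdac11 and Sirt6 was not tested.

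Class I deacetylases, acetyltransferases and co-repressor subunits did not pass between the stages under either label by the probes that stand for them; another probe of Hdac2 did, as given below. Over the embryonic arrays Hdac2 stayed at 13.23 to 13.73, Hdac3, the partner of Ncor1, at 11.02 to 11.30, and Hdac8, which deacetylates cohesin, at 5.92 to 7.79. Among the 9 acetyltransferases the changes in embryo ran from -0.59 ± 0.359 for Crebbp to 0.22 ± 0.115 for Kat2a. Among the 6 measured co-repressor subunits they ran from 5.6e-05 ± 0.2 for Mta3 to 0.30 ± 0.172 for Mta1. Dnmt1 read 10.49 ± 0.11 (SD, n = 6) at E13 and 10.46 ± 0.182 (SD, n = 5) at E16 in embryo. Its change of -0.03 ± 0.101 stands beside the fall of Uhrf1, its recruiter. Dnmt3b, a de novo methyltransferase, changed by 0.22 ± 0.12 (limma adjusted p = 0.192), and Tet1 by 0.05 ± 0.205. Mbd3, the methyl-CpG binding domain protein of the other NuRD form, changed by -0.34 ± 0.193 in embryo and -0.36 ± 0.193 in cKO and did not pass.

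**Figure D2:**
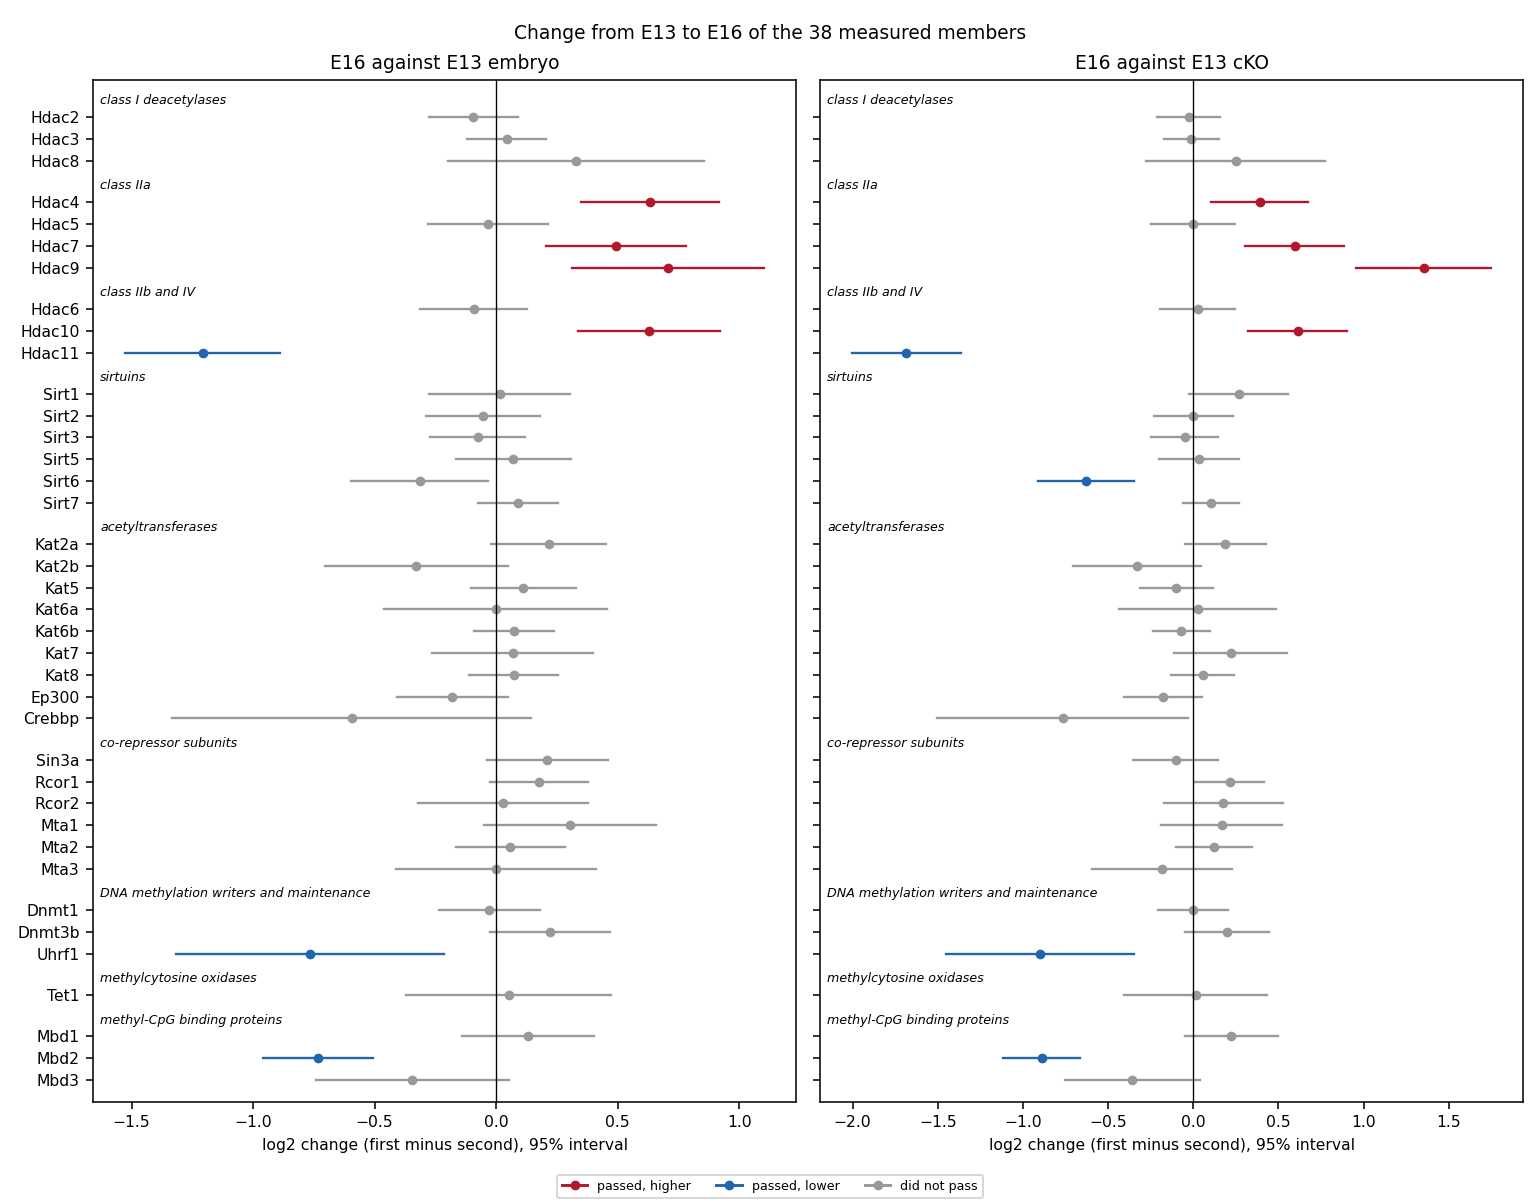
Log2 change from E13 to E16 (x axis, points) with its 95% interval (bars) for the 38 measured members, grouped by role (y axis), in embryo (left) and in the arrays labelled cKO (right). Points in red or blue passed as higher or lower; Hdac11 is farthest left in both, at -1.21 and -1.68, and Hdac9 farthest right, at 0.71 and 1.35.

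Partners of the members moved in both directions between the stages. The partner counts stand beside 11.5% of all measured genes that rose and 12.3% that fell in embryo. Among 24 measured co-repressor partners 3 rose and 1 fell in embryo, and the largest change was that of the NuRD subunit Gatad2b (1.16 ± 0.272). Among 31 measured acetyltransferase partners and acetyl-lysine readers 4 rose and 4 fell, with the largest change among those that passed in Hat1, which acetylates newly made histone H4 (-0.62 ± 0.118). Among 19 measured partners of DNA methylation and demethylation 2 rose and 5 fell, with Cxxc4 (-1.38 ± 0.181), a CpG binding protein, and Gadd45a (-1.21 ± 0.194), a stress protein linked to demethylation, changing most. In cKO 3 rose and 2 fell, 3 rose and 3 fell, and 2 rose and 3 fell, in the same order. Of all measured genes 11.6% rose and 14.3% fell there. The list medians in embryo were 0.12, 0.08 and 0.01, against -0.01 over all measured genes and 0.05 over the members.

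No member passed between the arrays labelled cKO and the embryo arrays: 0 of 38 did at E13, where 1.49% of all measured genes did, and 0 at E16, where 0.506% did. At an unadjusted limma p under 0.05 there was 1 member at E13, Hdac11, where 1055 of the 10663 measured genes were. There were 2 at E16, Hdac9 and Sin3a, where 748 of the 10663 were. The interaction of stage and label asks whether the change from E13 to E16 differed. It passed for 0 members and for 0.0188% of all genes. For it 2 members, Hdac9 and Hdac11, had an unadjusted limma p under 0.05, where 380 of the 10663 measured genes did. The 95% interval of the label difference lay within 0.5 of 0 on the log2 scale for 29 of 38 members at E13 and 27 of 38 at E16. It was widest for Crebbp, at 1.47 from end to end. At E13, 1 of 3 intermediate progenitor markers was higher and 2 of 8 cortical neuron markers were lower in cKO, and at E16 0 of either.

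Hdac9 came closest to a difference. At E16 the 5 embryo arrays ran from 6.88 to 7.73 and the 6 cKO arrays read 8.13, 8.21, 6.998, 7.99, 8.57 and 8.08. Array 3 lay within the embryo range and the other 5 above it. The mean difference was 0.65 ± 0.193 with a limma adjusted p of 0.149. Without array 3 it was 0.85 (limma adjusted p = 0.00144), and without both cKO arrays with positive scores on the second component 0.85 (limma adjusted p = 0.00141). Leaving out those arrays favours a difference, so these values are no independent test. At E13 Hdac9 differed by 0.01 ± 0.193, and its interaction was 0.65 ± 0.272, which did not pass. Hdac11 differed by 0.41 ± 0.155 at E13 (limma adjusted p = 0.274) and by -0.07 ± 0.155 at E16. Without array 4 of E13 cKO the difference of Hdac11 at E13 was 0.31 (limma adjusted p = 0.734), 0 members passed, and 26 genes were higher and 21 lower, where 159 passed with it. Sin3a differed by -0.26 ± 0.121 at E16 (limma adjusted p = 0.645). The column numbers of 5 E13 embryo and cKO arrays, and of 4 at E16, differ by 1 between the labels, and what they stand for is not given. With these pairs as a block, 0 members passed at either stage, with 3 at an unadjusted limma p under 0.05 at E13 and 0 at E16. All genes at that unadjusted threshold were not counted for this fit. At E13 Uhrf1 was higher in cKO in 5 of 5 pairs, by 0.49 ± 0.0983 (limma adjusted p = 0.095), as were Hdac11 by 0.42 ± 0.159 (limma adjusted p = 0.277) and Mbd2 by 0.21 ± 0.0875 (limma adjusted p = 0.318). Kat5 was also higher in 5 of 5 pairs, and Hdac2 and Hdac5 were lower in 5 of 5. How many of all measured genes went 1 way in 5 of 5 pairs was not counted. The pairs were chosen after the data were seen, and those at E13 include array 4 of E13 cKO. For Hdac9 at E16 the pairs gave 0.52 ± 0.228, higher in cKO in 3 of 4 (limma adjusted p = 0.685). Of the partner lists, 1 gene, Cxxc4, passed at E13 (0.80 ± 0.181, limma adjusted p = 0.0183), and 0 passed at E16.

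The sorted P2 neurons differed from the E16 embryo arrays in most members, and most of those were lower in P2. Of the 38, 24 were lower, where 41.5% of all measured genes were, and 3 were higher, where 30.4% were. Against E13 embryo, 25 were lower and 4 higher, beside 42.1% and 31.8% of all genes; both comparisons share the P2 arrays. Members that passed were 71.1% and 76.3%, close to the 71.9% and 73.9% of all genes, while members that were lower were 63.2% and 65.8%. The median change of the members was -0.58 against E16 and -0.50 against E13, beside -0.13 over all genes in each. When arrays were brought to 1 median in place of quantile normalisation, 20 members were lower and 4 higher against E16. Of the 10663 measured genes, 3346 were lower and 3444 higher under that scaling, and the median over all genes was -0.01. That scaling ended the calls of Hdac2, Kat2b, Kat5 and Ep300 against E16 and of Hdac4, Hdac11, Kat5 and Rcor1 against E13. Of the 27 members that passed against E16, 24 had groups that did not overlap, which is 63.2% of the 38, where 55.4% of all measured genes passed with groups that did not overlap.

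Markers of other cells were higher in P2 than in E16 embryo: 4 of 4 measured microglial markers, 3 of 3 endothelial, 2 of 2 oligodendrocyte lineage and 2 of 2 meningeal. The summed microglial signal was 10.5 to 11.1 on the P2 arrays and 7.06 to 7.51 in E16 embryo, where Aif1, Cx3cr1 and Ctss were below background. The endothelial sum was 10.8 to 11.4 against 6.20 to 6.46, where all 3 markers were below background. Of 8 measured markers of cortical neurons, 5 were higher and 2 lower, 3 of 3 markers of intermediate progenitors were lower, and 10 of 11 cycling markers were lower. Also, 2 of 4 interneuron, 1 of 2 astrocyte and 1 of 2 choroid plexus markers were higher, and 3 of 8 radial glia markers were higher and 3 lower. The choroid plexus and hem sum was 10.7 to 14.2 in P2 and 6.40 to 7.09 in E16 embryo, where Ttr was below background. The part of these cells in the P2 values below was not tested.

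All 6 measured co-repressor subunits were lower in P2 than in E16 embryo, where 41.5% of all measured genes were. Rcor2, a CoREST scaffold, read 10.15, 9.74, 9.66, 9.83 and 9.39 in E16 embryo and 7.82, 7.69, 6.90, 6.52 and 6.86 in P2. The groups lay far apart, with a log2 difference of -2.60 ± 0.177 on the log2 scale or 6.05-fold (limma adjusted p = 9.09e-13). Sin3a, the scaffold of the complex named after it, read 11.07, 11.003, 10.70, 10.93 and 10.69 in E16 embryo and 9.17, 9.13, 9.09, 8.91 and 9.10 in P2. Its P2 arrays were tightly grouped below all embryonic ones, with a change of -1.80 ± 0.126, or 3.49-fold (limma adjusted p = 1.56e-12). Mta3, an alternative Mta subunit of NuRD, read 9.12, 8.98, 8.67, 9.28 and 9.03 in E16 embryo and 7.14, 6.98, 7.19, 7.32 and 8.51 in P2. Array 5 stood apart in P2 but remained below every E16 embryo array, and the change was -1.59 ± 0.209 (limma adjusted p = 1.75e-07). Mta1 ran from 6.19 to 7.17 in P2 and changed by -1.59 ± 0.179, Mta2 from 9.82 to 10.21 with -0.60 ± 0.113, and Rcor1 from 10.17 to 10.42 with -0.44 ± 0.103. By its other kept probe the Rcor1 difference did not pass (limma adjusted p = 0.559).

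**Figure D3:**
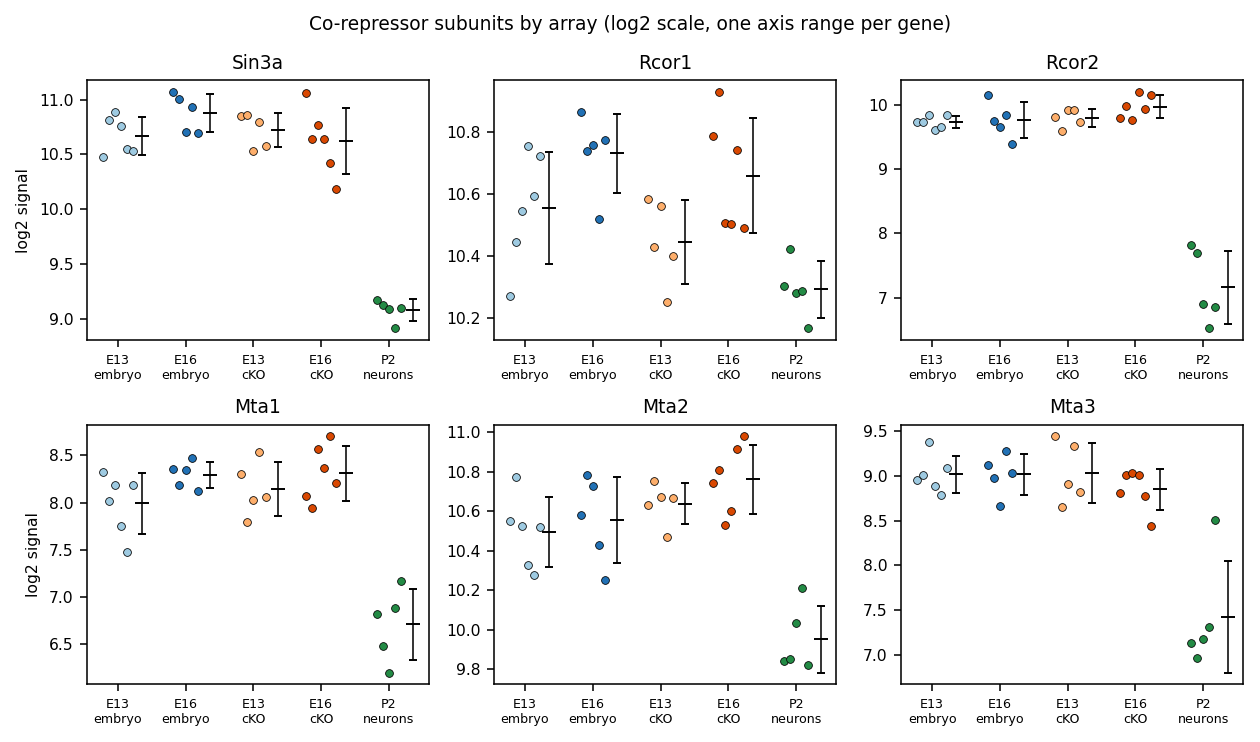
Log2 signal (y axis, own range per gene) on each array (points) by group (x axis) for the 6 measured co-repressor subunits, with the mean and SD beside each group (n = 5 or 6). The P2 arrays of Sin3a sit at 8.91 to 9.17 below all embryonic arrays, and P2 array 5 of Mta3 stands at 8.51 above the other P2 arrays.

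Among the methyl-CpG binding domain proteins and the methylation enzymes, some were much lower in P2 and others did not pass. Mbd2 read 8.24, 8.42, 8.42, 8.33 and 8.24 in P2, far below its E16 embryo values given above. The difference was -2.38 ± 0.115 against E16, or 5.2-fold (limma adjusted p = 7.15e-16), and -3.11 ± 0.11 against E13. Mbd3 read 10.32, 9.94, 10.29, 10.73 and 10.28 in E16 embryo and 8.65, 8.26, 8.999, 9.001 and 9.34 in P2. It was lower on every P2 array, with a log2 difference of -1.46 ± 0.201 (limma adjusted p = 3.85e-07). Mbd1, which binds methylated CpG, ran from 9.20 to 10.10 in P2 and did not pass against E16 by its brightest probe (-0.24 ± 0.138, limma adjusted p = 0.114). Its other kept probe, above background on all 27 arrays, was lower on every P2 array, at 5.78 to 6.95 against 7.21 to 7.79 in E16 embryo. By that probe the difference was -1.25 ± 0.169 against E16 and -1.06 ± 0.161 against E13 (limma adjusted p = 3.15e-07 and 1.97e-06 over kept probes), so the probes of Mbd1 do not settle whether it was lower. Dnmt3b read 8.72, 8.57, 8.87, 8.56 and 8.83 in E16 embryo and 8.16, 8.21, 8.11, 7.58 and 7.76 in P2. The groups did not overlap (-0.75 ± 0.125, limma adjusted p = 7.95e-06). Dnmt1 ran from 10.22 to 10.49 in P2 and did not pass against E16 (-0.11 ± 0.105, limma adjusted p = 0.363) or E13 (-0.14 ± 0.101, limma adjusted p = 0.227). Tet1, the measured methylcytosine oxidase, ran from 9.29 to 9.69 in P2 and did not pass either, although no P2 array overlapped with E13 embryo (-0.36 ± 0.205, limma adjusted p = 0.119).

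Uhrf1 varied most within P2, at 7.60, 7.84, 10.02, 8.76 and 7.71, for a mean of 8.39 ± 1.02 (SD, n = 5). Arrays 3 and 4 were the highest. The summed log2 signal of the cycling markers on the same arrays was 10.63, 10.81, 12.09, 11.30 and 10.68, also highest on arrays 3 and 4, as was that of radial glia markers (10.80, 11.04, 14.13, 12.88 and 11.60), of astrocyte markers (6.78, 7.25, 10.42, 8.77 and 7.82), of interneuron markers (8.11, 8.88, 12.45, 10.96 and 9.13) and of oligodendrocyte lineage markers (9.65, 9.67, 13.52, 12.20 and 10.76). All P2 arrays were below the E16 embryo arrays, with a mean difference of -1.99 ± 0.281 (limma adjusted p = 5.43e-07), and of -2.66 without arrays 3 and 4. Without those arrays 27 members passed against E16 (24 lower and 3 higher) and 27 against E13 (23 lower and 4 higher). Of the 10663 measured genes, 4183 were then lower and 3075 higher against E16, and 4296 lower and 3249 higher against E13. The calls of Hdac2 against E16 and of Hdac4, Kat5 and Rcor1 against E13 were then lost.

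Deacetylases went both ways in P2. Hdac8 read 7.51, 7.06, 7.03, 7.79 and 6.38 in E16 embryo and was above background on 0 of 5 P2 arrays, so only a bound can be given. With each P2 array set at its background limit, it was at least 3.23-fold lower than in E16 and at least 2.57-fold lower than in E13 embryo. The limma adjusted p of 1.45e-08 and 7.58e-08 came from the signals below background, and the bounds themselves were not tested. Hdac2 differed by -0.24 ± 0.0932 with overlapping groups. That call was lost under 8 of 21 alternatives, among them the omission of any 1 of E16 embryo arrays 2, 3 and 5 or P2 arrays 3 and 5, and the sign turned with its other probe (0.29) and with the mean of its probes (0.026). Hdac3 ran from 10.85 to 11.23 in P2 and did not pass. Hdac5 read 12.42, 12.08, 12.09, 12.04 and 11.44 in E16 embryo and 10.65, 10.64, 10.72, 10.71 and 10.79 in P2. Every P2 array was lower (-1.31 ± 0.125, limma adjusted p = 5.46e-10). Hdac4 read 7.96, 8.09, 7.66, 7.83 and 8.34 in P2 and Hdac7 8.18, 8.13, 8.07, 8.44 and 8.73. Both had risen from E13 to E16 and lay below the E16 range in P2, with a log2 difference of -1.07 ± 0.144 and -1.06 ± 0.147; these comparisons share the E16 embryo arrays. Hdac9, of the same class, read 8.13, 8.55, 7.78, 8.06 and 8.08 in P2. It lay above all E16 embryo arrays, by 0.77 ± 0.201 (limma adjusted p = 0.00129), and above E13 by 1.48 ± 0.193.

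The class IV enzyme Hdac11 read 7.63, 7.81, 7.35, 7.93 and 7.82 in P2. It lay above the E16 range (0.74 ± 0.162, limma adjusted p = 0.000216) and below E13 in the mean with overlap (-0.47 ± 0.155, limma adjusted p = 0.0088), a call that was lost under median scaling. Hdac6 read 8.71, 8.599, 8.77, 8.59 and 8.94 in E16 embryo and 7.88, 7.84, 7.65, 7.85 and 8.21 in P2. The groups were apart, with a log2 difference of -0.84 ± 0.112 (limma adjusted p = 2.28e-07). Hdac10 ran from 7.68 to 8.70 in P2, with a difference of -0.27 ± 0.148 from E16 (limma adjusted p = 0.106) and 0.36 ± 0.142 from E13 (limma adjusted p = 0.0249). The call against E13 was lost under 3 of 21 alternatives. Without P2 array 1 the difference was 0.234 (limma adjusted p = 0.126), and without P2 array 2 it did not pass either (limma adjusted p = 0.0926).

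Of the 6 sirtuins, which are NAD-dependent, 3 were lower and 1 was higher in P2 than in E16 embryo. Of all measured genes, 41.5% were lower and 30.4% higher. Sirt6 read 8.08, 7.77, 7.87, 8.03 and 7.86 in E16 embryo and 6.35, 5.79, 6.35, 6.60 and 6.87 in P2. Every P2 array was lower, with a log2 difference of -1.53 ± 0.143 (limma adjusted p = 4.13e-10). Sirt2, the cytoplasmic sirtuin, read 8.70, 8.55, 8.97, 8.80 and 9.003 in P2 and 9.61, 9.70, 9.53, 10.08 and 9.43 in E16 embryo. The nucleolar Sirt7 read 11.02, 11.09, 10.77, 10.91 and 10.83 in P2 and 11.78, 11.56, 11.72, 11.63 and 11.52 in E16 embryo. Neither overlapped, with differences of -0.86 ± 0.118 and -0.72 ± 0.0839. By its other kept probe, above background on 18 of 27 arrays, Sirt7 differed by -0.38 and did not pass (limma adjusted p = 0.153 over kept probes). Sirt3, the main mitochondrial deacetylase, was higher, at 9.50 to 9.96 in P2 and 8.94 to 9.33 in E16 embryo (0.50 ± 0.0986, limma adjusted p = 6.45e-05). Sirt1 and the mitochondrial Sirt5 ran from 8.78 to 9.29 and from 8.39 to 8.71 in P2 and did not pass.

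Of the 9 acetyltransferases, 5 were lower in P2 than in E16 embryo and 0 higher, beside 41.5% and 30.4% of all measured genes. Kat2b, an enzyme of the SAGA and ATAC complexes, read 6.31, 6.42, 6.39, 5.997 and 6.20 in E16 embryo and 5.32, 5.24, 5.94, 5.97 and 4.997 in P2. The groups were just apart, the probe was above background on 2 of 5 P2 arrays, and the change was -0.77 ± 0.192 (limma adjusted p = 0.000886). By its other kept probe it was -0.36 and did not pass (limma adjusted p = 0.0657 over kept probes). Kat2a, its paralogue, ran from 8.89 to 9.46 in P2, higher than in E13 embryo with overlap (0.36 ± 0.115, limma adjusted p = 0.00614), and did not pass against E16. Kat6b, a histone H3 acetyltransferase, read 11.71, 11.70, 11.71, 11.57 and 11.49 in E16 embryo and 10.87, 10.92, 10.87, 10.95 and 10.82 in P2. The groups were well apart (-0.75 ± 0.0842). Of its 4 kept probes, 2 that were above background on 8 of 27 arrays each gave 0.04 and 0.27 against E16 in place of a fall. Kat8, which acetylates histone H4, read 10.04, 9.86, 9.71, 9.99 and 9.73 in E16 embryo and 9.43, 9.37, 9.27, 9.22 and 9.30 in P2. These groups did not overlap either (-0.55 ± 0.0932). Kat5 of the NuA4 complex and the co-activator Ep300 were lower with overlap, with a log2 difference of -0.44 ± 0.109 and -0.33 ± 0.116. By its other 2 kept probes Ep300 differed by -1.14 (limma adjusted p = 0.0005 over kept probes) and by -0.42 (limma adjusted p = 0.39), the latter above background on 17 of 27 arrays. In P2 Kat5 ran from 8.54 to 8.99 and Ep300 from 10.04 to 10.35. Kat6a ran from 5.83 to 6.27, Kat7 from 8.16 to 9.01 and Crebbp from 7.90 to 8.38, and these 3 did not pass.

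**Figure D4:**
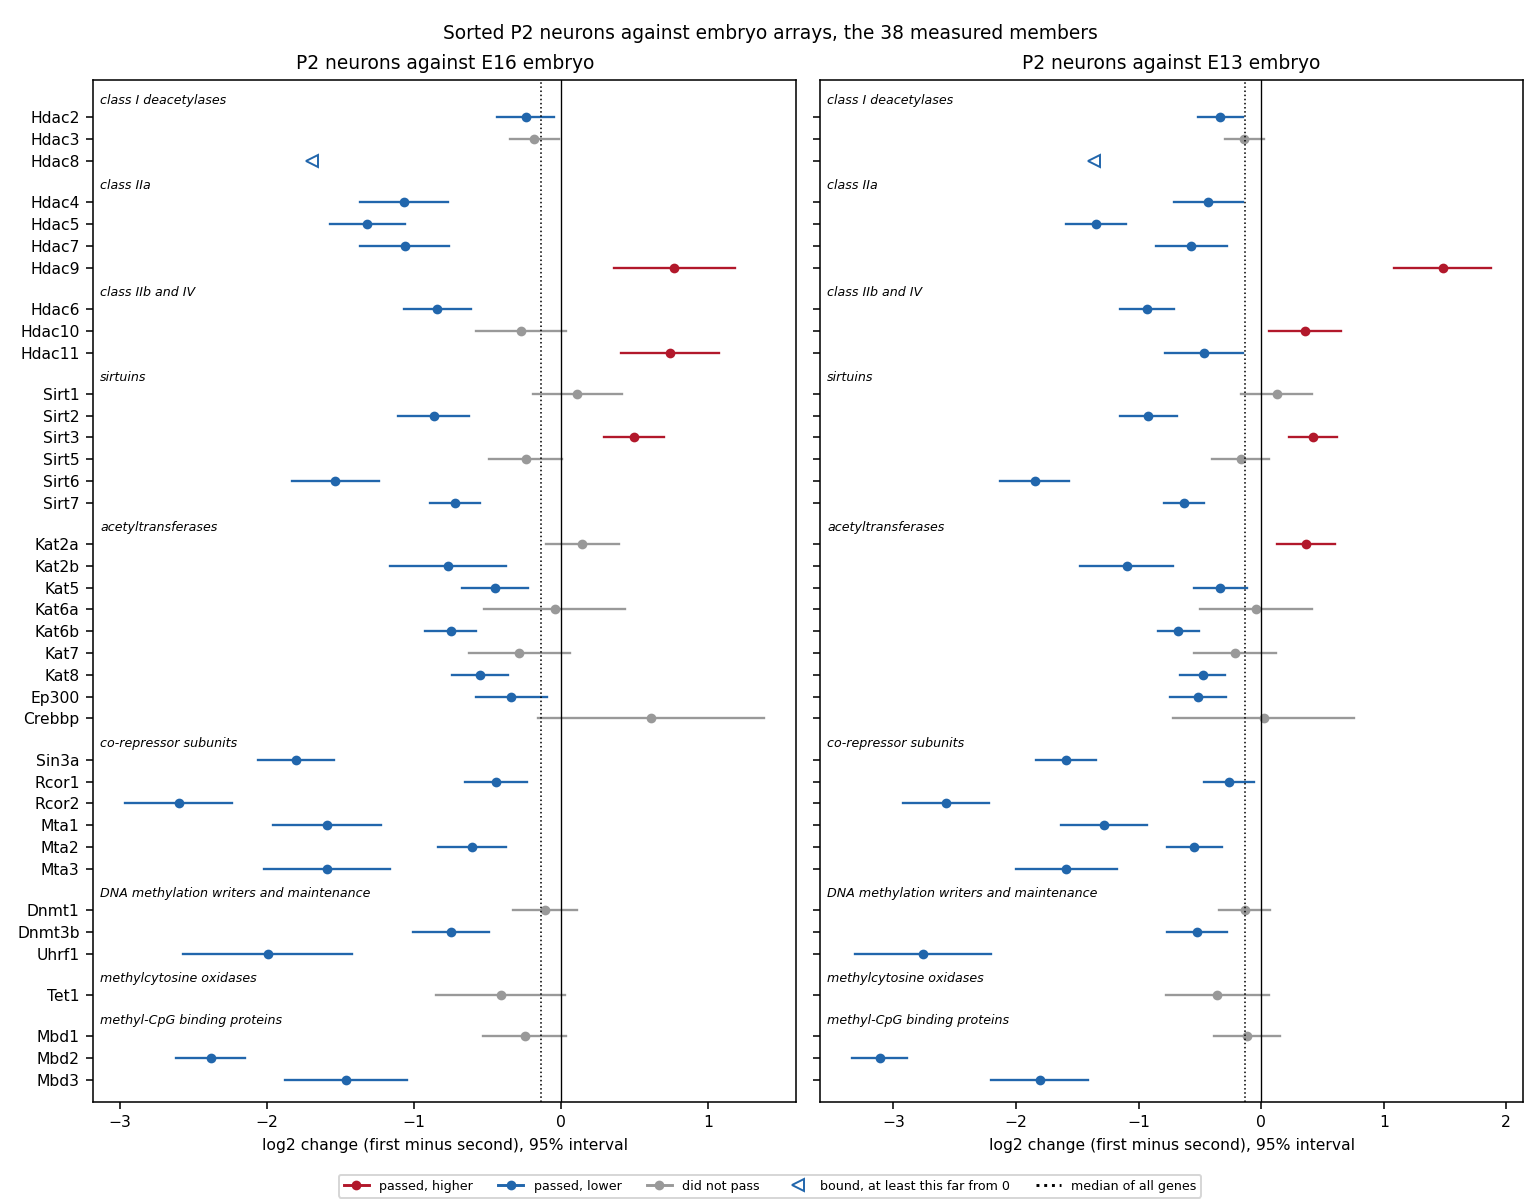
Log2 difference (x axis, points) with its 95% interval (bars) between sorted P2 neurons and E16 embryo (left) or E13 embryo (right) for the 38 measured members, grouped by role (y axis), with the median of all genes as a dotted line. The open triangle is the bound for Hdac8, which was below background on all P2 arrays (-1.69 and -1.36). Against E16, Rcor2, Mbd2 and Uhrf1 lie farthest left, at -2.60, -2.38 and -1.99, and Hdac9, Hdac11 and Sirt3 passed to the right of 0.

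Partners were lower in P2 as well, beside 41.5% of all measured genes lower and 30.4% higher. Against E16 embryo, 13 of 24 co-repressor partners were lower and 4 higher, led by Hmg20b (-1.79 ± 0.199), a CoREST subunit, Chd4, the NuRD remodelling ATPase (-1.73 ± 0.134), and Sap30 of the Sin3 complex (-1.71 ± 0.101). Of 31 acetyltransferase partners and readers, 18 were lower and 1 higher, led by Ing4 (-1.55 ± 0.0707), and of 19 DNA methylation partners 12 were lower and 3 higher. The largest change of the last list was a rise, that of Cxxc4 (3.19 ± 0.189), followed by Gadd45g (-2.66 ± 0.203), a relative of Gadd45a. The list medians were -0.42, -0.37 and -0.70, beside -0.13 over all genes.

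Some members varied widely within a group. Crebbp, a co-activator and acetyltransferase, read 8.24, 8.50, 7.03, 7.39 and 6.23 in E16 embryo and 8.21, 8.56, 7.01, 6.85, 6.82 and 6.18 in E16 cKO. Arrays 1 and 2 were high in both groups. These 4 arrays carry the numbers 11 to 16 in their column names and the other 7 carry higher ones; what the numbers stand for is not given. Crebbp ran from 8.21 to 8.56 on the former and from 6.18 to 7.39 on the latter, and its other kept probe split the arrays in the same way. Tet1 ran from 10.08 to 10.61 and from 9.01 to 9.90, also apart, and Hdac5 from 12.08 to 12.42 and from 11.44 to 12.09, with slight overlap. The split was noticed after the values were seen and is given with no test. With the number set as a block in a fit of the E16 arrays, Hdac9 differed between labels by 0.65 (limma adjusted p = 0.501). In that fit 0 members passed, with 2 at an unadjusted limma p under 0.05. All genes at that unadjusted threshold were not counted for it. Within the low numbers Hdac9 read 6.88 and 7.42 in embryo against 8.13 and 8.21 in cKO, and within the high numbers 7.22 to 7.73 against 6.998 to 8.57.

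Probes of 1 gene did not always move together. Of the measured members, 13 had several kept probes, and in 26 of 91 pairs of a gene and a comparison their changes had opposite signs. In 1 of these both probes had an unadjusted p under 0.05, namely Hdac2 in P2 against E13. The probe that stands for Hdac2, a class I enzyme of the Sin3, NuRD and CoREST complexes, read 13.59 ± 0.0812 (SD, n = 6) in E13 embryo and 13.25 ± 0.105 (SD, n = 5) in P2. Its groups did not overlap, with a difference of -0.33 ± 0.0892 (limma adjusted p = 0.00159). The other probe ran from 8.03 to 8.62 in E13 embryo and from 9.18 to 9.51 in P2. It was higher on every P2 array, by 0.98 ± 0.217 (limma adjusted p = 0.000252 over kept probes), and also rose from E13 to E16, by 0.69 ± 0.217 in embryo and 0.86 ± 0.217 in cKO. The direction of Hdac2 is therefore not settled by these arrays.

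**Figure D5:**
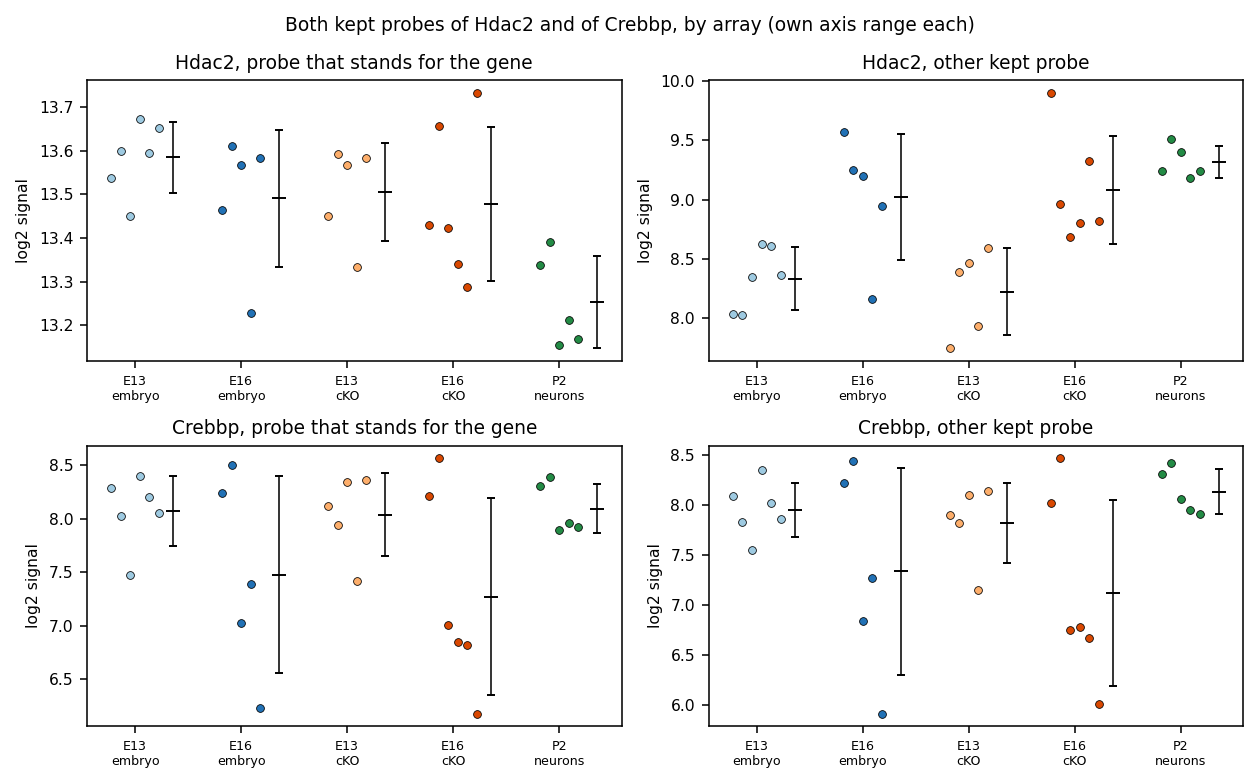
Log2 signal (y axis, own range per panel) on each array (points) by group (x axis) for both kept probes of Hdac2 and of Crebbp, with the mean and SD beside each group (n = 5 or 6). The probes of Hdac2 go opposite ways from E13 to P2, and both probes of Crebbp split the E16 arrays, at 8.21 to 8.56 and 6.18 to 7.39 for the brighter probe.

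Over the 7 comparisons, 9 of the 38 members did not pass once by the probe that stands for them: Hdac3, Sirt1, Sirt5, Kat6a, Kat7, Crebbp, Dnmt1, Tet1 and Mbd1. Of these, Mbd1 passed in both P2 comparisons by its other probe, as given above. Over all 27 arrays the log2 signal ran from 10.85 to 11.30 for Hdac3, 8.57 to 9.45 for Sirt1, 8.39 to 9.04 for Sirt5, 8.16 to 9.29 for Kat7, 9.20 to 10.19 for Mbd1 and 10.22 to 10.75 for Dnmt1. Kat6a stayed near the background limit at 5.36 to 6.78.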

How the data were processed

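Per the file headers, average signals had no normalisation and each probe had a detection p-value for signal above background. Both the intensity values and the detection p-values were deposited in 3 tables, by embryo, cKO and P2 samples. Signals ran from -50.8 to 48266, so background subtraction preceded deposit. The log2 values of the authors' deposited series matrix (12377 probes, 7520 genes, 30 members, median 8.947 in its first column) served as an alternative. The software behind the tables is not given in the sources used here.

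Signals of 45281 probes were processed in R 4.3.3 with limma 3.58.1: normexp background correction from the detection p-values (offset 16), quantile normalisation over 27 arrays and log2. Probes with a detection p under 0.01 on at least 5 arrays were kept (20498). By the platform annotation 34885 probes had 1 symbol, 18 several and 10378 none. Each of the 10663 genes was read from its brightest kept probe; 56 of the members' 82 probes were kept. A limma model with a mean per group gave 7 comparisons, at a Benjamini-Hochberg adjusted p under 0.05. The number of arrays limits the precision. For a probe below background on all arrays of a group, that group was put at its arrays' background limit and a bound is given.

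Every member is named with its level range, its change or as not measured; values per array are given for at most the 3 largest passing changes of a role group and comparison, and, chosen after their values were seen, for Crebbp at E16 and for Hdac9 between labels. Members, partner lists and markers were chosen with earlier results of these data known. Groups came from the labels. The signal columns carry no replicate number, so a replicate block was fitted on the series matrix; correlations of same-numbered samples there ran from -0.28 to 0.426 and were not all over 0.1 for any pair of groups, so the numbers were not taken as pairs. The model was tested on simulated data. Alternatives changed background, scaling, source, filter, probe, moderation, samples in the fit, block and arrays. A slide block was not run, since the headers name no slide. Motifs were searched in RefSeq promoter windows of build GRCm38.p6.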

Additional observations from a re-analysis of the deposited data

Results flagged for a closer look

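In 5 of 190 groups of values (38 members in 5 groups) 1 array stood apart from the others of its group, by its gap to the next array as a share of the range of the group. Chance flags about 1 in 20. Hdac9 in E16 cKO had array 3 lowest, at 6.998 against the next at 7.99, a gap of 0.63 of the range. This array also had a score like most embryo arrays over all genes. Mta3 in P2 had array 5 highest, at 8.51 against 7.32 (0.778). Hdac8 in P2 had array 4 lowest, at 4.60 against 4.82 (0.782), all below background. Hdac6 in E16 cKO had array 2 lowest, at 8.44 against 8.76 (0.686). Kat8 in E13 embryo had array 6 lowest, at 9.62 against 9.79 (0.657). No array stood apart for more than 1 member, and the causes were not tested.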

How the results depend on the processing

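Over the alternatives on the signal tables, the members that passed numbered 6 to 8 between stages in embryo, 7 to 9 in cKO, 24 to 30 for P2 against E16 and 25 to 29 against E13, and 0 between labels at E13 and for the interaction. On the series matrix, which held 30 members, 4 passed between stages in embryo and 3 in cKO, with fewer members tested. The replicate block on those values gave 4 and 3 as well and changed no other count by over 1.5 times. Between labels at E16 the count ran from 0 to 1 when each array was left out, and was 1 without the cKO arrays with positive scores on the second component (Hdac9 both times). That alternative, the number set block, the block of neighbouring column numbers and leaving out P2 arrays 3 and 4 were chosen after seeing the data. Arrays with neighbouring numbers had correlated deviations of -0.0459 to 0.343 at E13 and 0.0901 to 0.414 at E16, and 4 of 5 and 4 of 4 embryo arrays correlated best with their neighbour. The block gave 0 members at each stage, as did the same arrays without it. Bringing arrays to 1 median turned the split of all genes between stages in cKO from 1242 higher and 1530 lower to 582 and 1323, and in P2 against E16 from 3241 and 4427 to 3444 and 3346; it ended the calls of Hdac7 in embryo (limma adjusted p = 0.0501) and Hdac4 in cKO (0.142). Directions turned with the probe used. In P2 against E16, Hdac2 went to 0.026 with the mean of its probes and 0.291 with its other probe, and Kat6b to 0.040 and 0.268 with its dim probes. Against E13, Hdac2 went to 0.323 and 0.979, Kat6b to 0.0018 and 0.352 and Rcor1 to 0.092. The causes were not tested.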
